A study of Homo sapiens with 12 samples.

Results

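The MARK kinase family comprises the 4 human genes MARK1, MARK2, MARK3 and MARK4, which were chosen by symbol. Of these 4 genes, 3 were found in at least 1 of the 5 tables of the authors' own comparisons used here, which together list 4693 genes as changed after loss of TDP-43. MARK4 was in none of them. Single tables listed between 1.95% and 11.7% of 20056 RefSeq protein-coding genes. The share listed in at least 1 table was not computed, so the count of 3 has no share beside it. The neurons were derived from the established embryonic stem cell line WA01 by switching on NGN2, a transcription factor that turns stem cells into cortical neurons. One group, labelled WT, received a scrambled short hairpin RNA and the other, labelled TDP-43 knockdown, a hairpin against TDP-43. Both groups are labelled day 7. TDP-43 is the RNA-binding protein, encoded by TARDBP, that is lost from neuronal nuclei in amyotrophic lateral sclerosis and frontotemporal dementia. Each group was sequenced as 3 RNA-seq libraries (total RNA, stranded) and as 3 libraries of 3' end-seq, which reads the ends of transcripts (QuantSeq REV), which makes 12 libraries. All libraries came from 1 cell line, and the labels name no separate cultures behind the replicates, so p-values from the authors may cover technical spread only.

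The microtubule affinity-regulating kinases are relatives of the AMP-activated protein kinase and the mammalian counterparts of the polarity kinase Par-1. They phosphorylate tau, MAP2 and MAP4 in the repeats that bind microtubules, which releases these proteins from the microtubule. STK11 (LKB1) and the TAO kinases activate them, atypical protein kinase C and 14-3-3 proteins move them off the membrane, and in neurons they act in axon formation, dendritic spines and the phosphorylation of tau. Each MARK protein has an N-terminal kinase domain, a ubiquitin-associated domain, a spacer that is variably spliced, and a C-terminal domain that binds membrane lipids.

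The 3 listed kinases changed in different ways. MARK3 was called longer in 3' end-seq, distal in RNA-seq, and changed in splicing just upstream of its terminal exon. MARK2 changed in splicing only, at 3 places within 6096 nt of the gene. MARK1 gained use of a polyadenylation site inside an intron and was called distal in RNA-seq. The tables hold 1 value for each comparison, or 1 value per group for cryptic sites, so values per library, a spread between replicates and the depth are unknown. Only what the authors called changed is listed, with no adjusted p above 0.05 where one is given. A gene that is not listed may therefore be unchanged, or may not have been tested. RNA levels of TARDBP, of neuronal markers and of the MARK genes were not analysed here, because the columns of the gene table are not tied to samples.

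MARK3 (ENSG00000075413) spans positions 103385415 to 103503831 of chromosome 14 in hg38. Its transcripts ended farther downstream in the knockdown. In the authors' deposited table of 3' end-seq, the usage index of MARK3 changed by 0.425 toward the longer form, with an adjusted p given as 0. An adjusted p of exactly 0 was given for 150 of the 2220 genes of the authors' deposited table, so it does not rank MARK3 among them. Use fell at position 103503281 and rose at position 103503827, both on the plus strand, in the authors' deposited table. The sites lay 546 nt apart, and the rising site lay 4 nt before the RefSeq end of the gene, so both sites were inside it. The last 3' splice site of MARK3 in the splicing table was at position 103502882. Measured from there to the site, and with no further intron, the terminal exon would be 400 nt long for the falling site and 946 nt for the rising site, 2.37 times as long. Of the members, 3' end-seq listed MARK3 alone, 1 of 4, while 9.53% of 20056 RefSeq protein-coding genes were listed. That share stands in for the number of genes tested, which is not given, and counts many genes that neurons may not express. Of all 2220 listed genes, 84.7% were called longer.

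**Figure D1:**
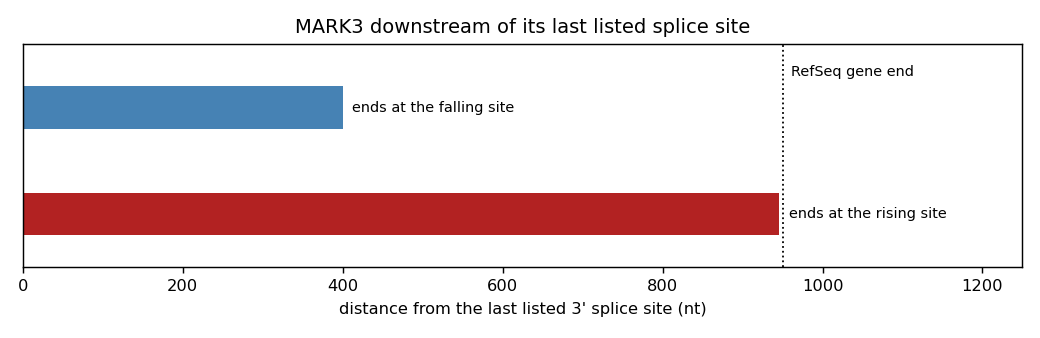
Distance in nt from the last listed 3' splice site of MARK3 (horizontal axis) to the polyadenylation site whose use fell (blue bar, 400 nt) and to the site whose use rose (red bar, 946 nt) in the knockdown. The dotted line is the RefSeq end of the gene, 4 nt past the rising site; the bars show lengths and not amounts.

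By size, the MARK3 change stood near the top of the genes called longer and its sites were close together. MARK3 ranked 109 of 1881 by its change in the authors' deposited table, in which the median change of genes called longer was 0.214. The sites of 16.1% of these genes were closer together than the 546 nt of MARK3, and the median distance was 2555 nt. Among the 465 genes called longer with sites up to 1000 nt apart, MARK3 ranked 10 by change.

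RNA-seq, made from separate libraries, also listed MARK3, with a smaller place in its table. The usage index of MARK3 changed by 0.565 in the authors' deposited table of RNA-seq polyadenylation and was called distal (adjusted p = 0.0256, as given by the authors). The 2 indices are on different scales and are not compared by size. MARK3 ranked 534 of 799 genes called distal by its change, against a median of 0.765 in the authors' deposited table. A larger adjusted p than that of MARK3 was given for 112 of the 841 genes listed. The subtracted group is not stated for RNA-seq, and a distal call is taken to mean that knockdown neurons used the downstream site more, so the matching direction of MARK3 in both assays rests on that reading. Of the 841 genes, 95% were called distal.

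**Figure D2:**
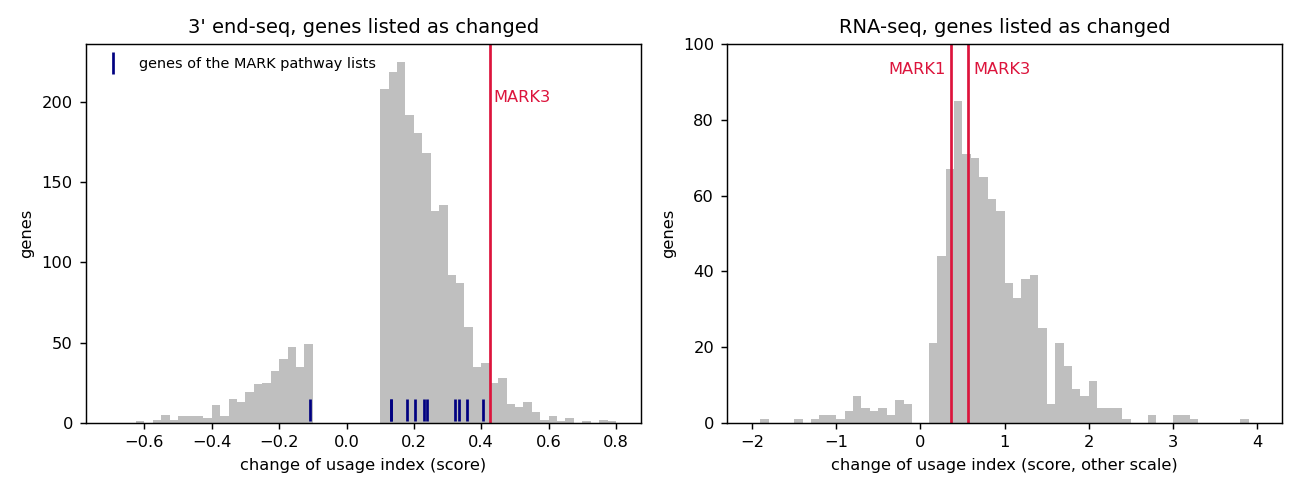
Number of genes (vertical axes) by change of the usage index (horizontal axes, a score on a different scale in each assay) in 3' end-seq (left) and RNA-seq (right). Red lines mark MARK3 at 0.425 on the left, and MARK1 at 0.36 and MARK3 at 0.565 on the right; blue ticks mark the 11 other genes of the pathway lists in the left table, 10 of them above 0.

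MARK1 (ENSG00000116141), at positions 220528136 to 220664461 of chromosome 1, gained a transcript end inside the gene. Its intronic site at position 220582897 on the plus strand was used at 3.18% in scrambled and at 21.4% in knockdown neurons in the authors' deposited table of cryptic sites. The gain was 18.3 percentage points, and knockdown usage was 6.74 times scrambled usage. The site is marked as premature by the authors. It lay 54761 nt past the RefSeq start and 81564 nt before the RefSeq end, so that 40.2% of the gene precedes it. The usage has 1 value per group, no p-value and no stated number of reads, so no error can be given. Sites enter this table for being low in control and higher in the knockdown (at most 5.99% and at least 10.7% in the authors' deposited table), so the direction follows from how the table was made. Within it MARK1 was an ordinary site, with rank 54 of 129 intronic sites by knockdown usage. Intronic sites had a median usage of 3.41% in scrambled neurons and a median gain of 16.1 percentage points, computed from the authors' deposited table. MARK1 was the only member with a cryptic site, 1 of 4, while 1.95% of protein-coding genes had one, and 28.2% of the 457 sites were intronic.

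**Figure D3:**
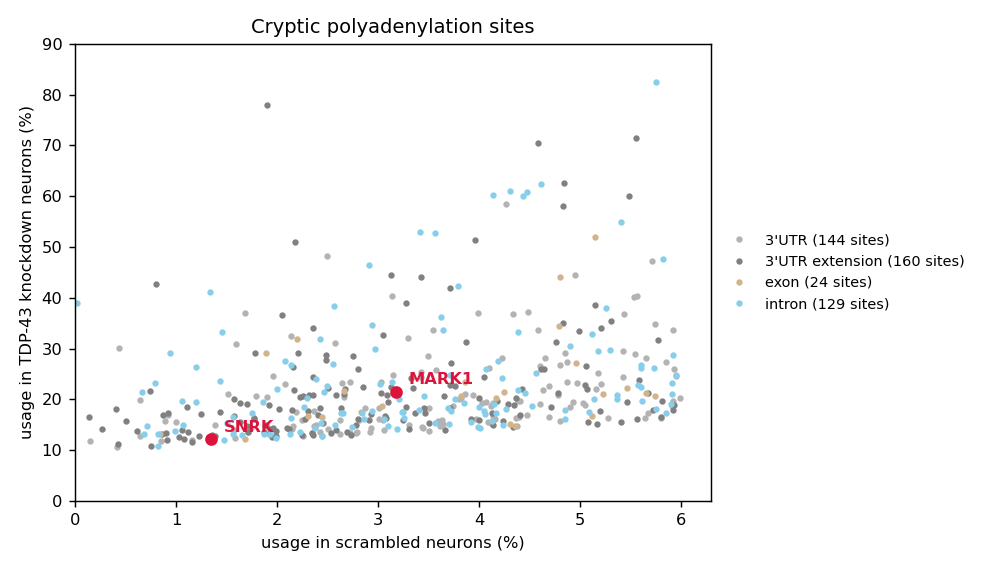
Usage in percent of each of the 457 cryptic polyadenylation sites in scrambled (horizontal axis) and TDP-43 knockdown neurons (vertical axis), 1 value per group, coloured by position in the gene. Red points are the intronic MARK1 site at 3.18% and 21.4% and the 3'UTR site of the related kinase gene SNRK at 1.35% and 12.1%; both lie within the range of the other sites.

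MARK1 was not among the genes with a pair of sites in 3' end-seq, and its intronic site was the rising site of no pair there, whereas 78 of the 129 intronic sites were rising sites of a pair. In RNA-seq, the usage index of MARK1 changed by 0.36 in the authors' deposited table and was called distal (adjusted p = 0.0433, as given by the authors). That was rank 700 of 799 genes called distal, and 28 of 841 genes had a larger adjusted p in the authors' deposited table. The premature site lies upstream in MARK1. The distal call, in contrast, is taken, as for MARK3, to mean that knockdown neurons used a downstream site more. The RNA-seq table does not give the sites it compared, so it is not known whether the intronic site entered its index. Of 7 genes with an intronic cryptic site that RNA-seq also listed, 6 were called distal, while 95% of the whole table were. RNA-seq listed 2 of the 4 members, MARK1 and MARK3, while 4.18% of protein-coding genes were listed.

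MARK2 (ENSG00000072518), at positions 63839110 to 63911020 of chromosome 11, was the member with the most splicing clusters. A cluster here is a set of introns that share splice sites, each intron has a share of its cluster's reads, and positive changes are read as higher in the knockdown. That reading rests on STMN2, whose junction to its unannotated exon, a known effect of TDP-43 loss, gained 44.9 percentage points in the authors' deposited table. The splicing tables listed 3 clusters of MARK2 and 2 of MARK3, so 2 of 4 members were listed, while 11.7% of protein-coding genes were. Among the 2337 protein-coding genes with a cluster, 86 had 3 or more.

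In the most significant MARK2 cluster, 1 short exon gained and the next one lost (adjusted p = 3.76e-13 in the authors' deposited table, rank 13 of 2994 clusters). The first of them lies at positions 63906088 to 63906114 and is 27 nt long, and the second at 63908260 to 63908304 is 45 nt long. The junction into the 27-nt exon gained 10.8 percentage points in the authors' deposited table. The junction from the 27-nt exon to the downstream exon at position 63908877 gained 9.7 points in the authors' deposited table. The junction from the upstream exon into the 45-nt exon changed by -6.5 points, and the one leaving the 45-nt exon by -14.3 points, in the authors' deposited table. The junction that joins both short exons changed by 0.2 points and the one that skips both by 0.1 points in the authors' deposited table. Junctions that carry 1 of the short exons thus moved, up for the first and down for the second. Those for both exons or neither moved by 0.2 points or less. Over the 2 junctions into it the 45-nt exon changed by -6.3 points, so its 2 sides differed by 8.0 points. All 6 introns of the cluster are annotated, as in 11.2% of all listed clusters. Its largest change, 14.3 points in size, ranked 557 of 2994, and 33% of the clusters had a change of at least 10 points.

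A second MARK2 cluster lay just upstream and showed loss of a longer exon. The junction that skips the 162-nt exon at positions 63903986 to 63904147 gained 7.1 points in the authors' deposited table (authors' adjusted p = 0.00185). The junction into this exon changed by -1.1 points and the junction out of it by -6.0 points in the authors' deposited table. The 2 sides of the exon thus differed by 4.9 points. The third cluster held 2 alternative 3' splice sites 5 nt apart, of which the annotated one, at position 63903061, changed by 0.9 points in the authors' deposited table (authors' adjusted p = 0.02). The unannotated one, at position 63903066, changed by -0.9 points in the authors' deposited table. That cluster was the smallest change of the family, with rank 2906 of 2994 by size.

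**Figure D4:**
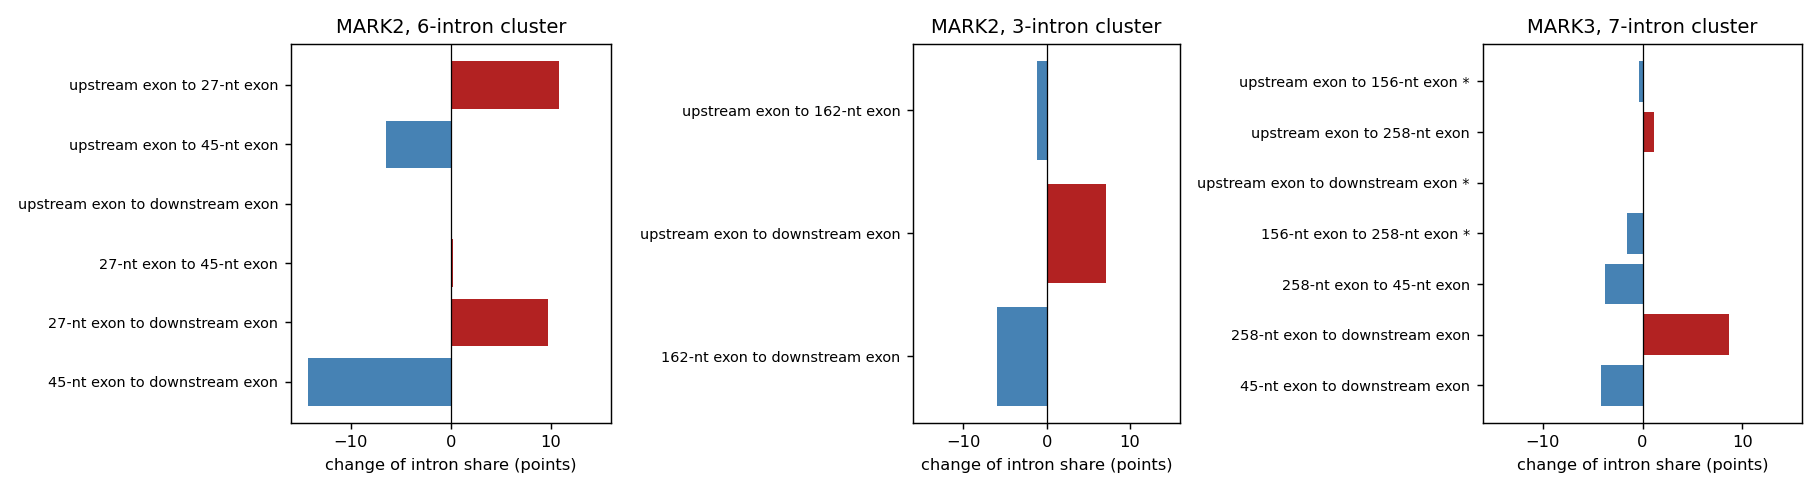
Change of each intron's share of its cluster in percentage points (horizontal axes; red, gained and blue, lost in the knockdown) for 2 clusters of MARK2 and 1 of MARK3, with each intron named by the exons it joins and an asterisk on unannotated introns or pairings. In MARK2 the junctions of the 27-nt exon gained 10.8 and 9.7 points while those of the 45-nt exon lost; in MARK3 the junction that skips a 45-nt exon gained 8.7 points.

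MARK3 also lost a 45-nt exon, the last one before its terminal exon. The junction that skips the exon at positions 103500156 to 103500200, and so joins the 258-nt exon before it to the terminal exon, gained 8.7 points in the authors' deposited table (authors' adjusted p = 3.98e-06, rank 180 of 2994). For the junctions into and out of the 45-nt exon, the authors' deposited table gives changes of -3.8 and -4.2 points. The same cluster held a 156-nt unannotated exon at positions 103490952 to 103491107, for whose 2 junctions the authors' deposited table gives -0.4 and -1.6 points. Use of the 45-nt exon and the choice of polyadenylation site in MARK3 thus changed in neighbouring exons. Whether single transcripts carry both changes was not tested. Of the 2220 genes listed from 3' end-seq, 80 had a listed 3' splice site within 1000 nt upstream of the falling site, and MARK3 was 1 of 4 such genes among the 60 listed in both polyadenylation tables and in splicing.

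The second MARK3 cluster lay upstream of the first, from position 103386080 to 103462405, and barely moved. It held 20 introns, 14 of them unannotated or unannotated pairings, and had an adjusted p of 0.0131 in the authors' deposited table. Its largest change was 1.1 points, for the annotated intron from position 103457212 to 103462405, in the authors' deposited table. No unannotated intron of the cluster changed by more than 0.3 points in size in the authors' deposited table. Over the family, 10 of 11 listed introns of MARK2 and 10 of 27 of MARK3 were annotated. The changes of 5 points or more were all in annotated introns. The annotated share of all 15980 listed introns was not computed, so neither count is shown to be particular to the family.

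The 4 cassette exons of MARK2 and MARK3 with annotated junctions only had lengths that are multiples of 3. So had 62.6% of 358 annotated cassette exons up to 300 nt, which include these 4. The 27-nt and both 45-nt exons and the 162-nt exon correspond to 9, 15 and 54 codons. In the 20-intron cluster of MARK3, whose cassettes involve unannotated introns or pairings, exons of 49 and 71 nt are not multiples of 3. Those of 54, 63, 66, 69 and 192 nt are. These lengths take both table positions as exonic bases, a reading under which 224 of 358 annotated cassette exons up to 300 nt in the table (62.6%) were multiples of 3, against 21.2% and 16.2% under the other readings. Since that reading rests on this share, the lengths of the 4 exons are no separate result. For the direction of annotated cassette exons, 44.7% of the 358 fell on both sides and 31.6% rose on both sides. Among exons longer than 30 and up to 60 nt, 40 of 83 fell on both sides, so the loss of the 45-nt exons of MARK2 and MARK3 followed the more common direction of that length. Of 37 exons up to 30 nt, 16 rose and 17 fell on both sides. Of 25 clusters with 2 or more annotated cassette exons, 8 held exons of opposite direction, MARK2 among them.

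MARK4 (ENSG00000007047), at positions 45251271 to 45305284 of chromosome 19, was listed in none of the 5 tables. It has been linked to the phosphorylation of tau in Alzheimer's disease. No value can be given for it, and its absence does not show that it was unchanged.

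The genes most like MARK3 were sought among the other 59 genes listed in both polyadenylation tables and in splicing, by rank of the 3' end-seq change and of the distance between sites over all listed genes. TMEFF2 was nearest, with a change of 0.379 and sites 1033 nt apart in the authors' deposited table. FYN, a Src-family kinase gene, followed at 0.341 and 949 nt, then RAP1GDS1 at 0.353 and 1193 nt, and GOLGB1 at 0.263 and 909 nt, in the authors' deposited table. All 4 were called distal in RNA-seq, as were 95% of all genes listed there, and each had 1 splicing cluster. A listing in RNA-seq and in splicing was a condition for being among the 59 genes, so neither counts as likeness to MARK3. The likeness is over 2 values per gene and over no samples. MARK3 had both a larger change and a shorter distance than each of them.

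Genes chosen as regulators, relatives, substrates or partners of the MARK kinases were listed most often for splicing. Splicing also listed the largest share of all protein-coding genes. Of 70 genes in 6 lists (regulators, related kinases, microtubule-bound substrates, other substrates, polarity partners and 14-3-3 proteins), 32 were in at least 1 table. The share of protein-coding genes in at least 1 table was not computed, so this count has no comparator. Splicing clusters were listed for 26 of them (37.1%, against 11.7% of protein-coding genes) and 3' end-seq changes for 11 (15.7%, against 9.53%). RNA-seq polyadenylation listed 2 of the 70 (2.86%, against 4.18%), and 1 had a cryptic site (1.43%, against 1.95%). These lists hold genes chosen for a role in neurons or polarity, and with earlier results of these data known. Their shares were not tested against that background, and the shares of protein-coding genes count many genes that neurons may not express. The gap between the shares is therefore no evidence of enrichment. The counts within each list, given below, have the same limit. In 3' end-seq 10 were longer and 1 was shorter, while 84.7% of all genes listed there were longer. In RNA-seq both listed genes were distal, as were 95% of all genes listed there. The median change of the 10 longer genes was 0.235, against 0.214 for all genes called longer, in the authors' deposited table.

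Among the 16 regulators, 2 were longer and 7 had a splicing cluster. USP9X, a deubiquitinase reported to act on MARK4, was longer at 0.406 and TAOK2, a TAO kinase, at 0.132 in the authors' deposited table. All 3 TAO kinase genes had a splicing cluster. The largest change in TAOK3 was -12.5 points (authors' adjusted p = 0.000149) in the authors' deposited table. In TAOK1 it was -4.4 points (authors' adjusted p = 9.38e-06) in the authors' deposited table. STRADA, the pseudokinase partner of STK11, had an unannotated pairing of annotated splice sites that gained 14.1 points in the authors' deposited table (authors' adjusted p = 0.000729). GSK3B lost use of a 39-nt exon, for which the authors' deposited table gives -2.6 and -2.8 points on its 2 sides (authors' adjusted p = 0.00748).

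Of the 11 AMPK-related kinases, 2 were longer, 1 was shorter and 3 had splicing clusters. SIK3 was called longer at 0.357 and PRKAA2, a catalytic subunit of the AMP-activated kinase, at 0.132 in the authors' deposited table. SNRK was shorter at -0.109 in the authors' deposited table. Its rising site, at position 43348836 of chromosome 3, was also a cryptic 3'UTR site used at 1.35% in scrambled and 12.1% in knockdown neurons in the authors' deposited table. MARK1 was thus the family member with a premature site inside an intron, and SNRK the relative with a cryptic site in the 3'UTR.

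Of the 9 genes of microtubule-bound substrates and relatives, 5 had splicing clusters, 10 in all, and 1 was called longer. MAP6, which stabilizes microtubules, had a junction that changed by -31.0 points (authors' adjusted p = 6.66e-18) and, in a second cluster, one that changed by -22.4 points (authors' adjusted p = 0.00464) in the authors' deposited table. MAP2, a dendritic substrate, had 4 clusters, the largest change in them being -3.5 points in the authors' deposited table. MAPT, which encodes tau, had a cluster around a 93-nt exon at positions 46010310 to 46010402 of chromosome 17. The junction that skips it gained 1.6 points in the authors' deposited table (authors' adjusted p = 0.049, near the threshold of 0.05). The alternative exon that sets how many microtubule-binding repeats tau carries is of this length. MAP4, the widely expressed substrate, was called longer with a change of 0.179 in the authors' deposited table and sites 122384 nt apart on the genome.

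Of the 16 genes on the list of other substrates, 4 were longer and 5 had splicing clusters. Whether each of them is a substrate of a MARK kinase was not tested here. SPRED1 at 0.333, NEDD4L at 0.323, CDC25C at 0.239 and CRTC1 at 0.230 were the longer genes in the authors' deposited table. CDC25C had sites 51871 nt apart and the largest adjusted p of these genes (authors' adjusted p = 0.0400, near the threshold of 0.05). DLG4, the postsynaptic scaffold, was distal in RNA-seq at 1.85 in the authors' deposited table. CRTC1, a coactivator of CREB, had a junction that changed by -12.0 points in the authors' deposited table (authors' adjusted p = 0.00368). Among the 11 polarity partners, DVL3 was longer at 0.203 and distal at 0.328 in the authors' deposited tables, and DLG1, PARD3 and SCRIB had splicing clusters. PARD3, the scaffold of the polarity complex opposed by Par-1 kinases, had a junction that gained 11.9 points in the authors' deposited table (authors' adjusted p = 0.00384). None of the 7 14-3-3 genes was listed for polyadenylation, and 3 had splicing clusters. YWHAZ had the largest of their changes, 4.9 points in the authors' deposited table (authors' adjusted p = 3e-06).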

How the data were processed

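The members and the gene lists were chosen with earlier results of these data known. Library preparation, per the labels' protocols, began with trizol extraction and DNase digestion; a stranded low-input kit gave the RNA-seq libraries, and QuantSeq REV the 3' end-seq libraries. Since that kit starts from stretches of A, an A-rich stretch inside a transcript can look like a site. This was not tested for any site, including those of MARK1, MARK3 and SNRK. In the submitters' processing notes hg38 is the build, and STAR, SAMtools, Salmon, fastp and DESeq2 are named; no version, role or site caller is stated.

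The changes of the polyadenylation usage index and of the intron share are a deposited score of the authors, the latter printed here in percentage points. The p-values are adjusted p-values deposited by the authors. The usage of cryptic sites is a fraction deposited by the authors with 1 value per group, printed as a percent; the table gave 2 sites of its 459 lines a second time with slightly different values, and the first was kept. The normalised gene counts deposited by the authors (6 columns, 1 per library) stayed out, because no label ties a column to a sample or group, so the intended test of expression was not run.

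Symbols were matched directly or through RefSeq synonyms (GRCh38.p14). A cassette exon is one with a junction on each side and a junction that spans it. Named genes were the 4 members, the listed genes of the 6 lists (examples for splicing) and the 4 genes nearest to MARK3 by summed rank differences. No test of differences was computed here; functions were tested on simulated data. Python 3.11.15, numpy 2.4.6, pandas 2.3.3 and matplotlib 3.10.9 were used.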

Additional observations from a re-analysis of the deposited data

How the results depend on the processing

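Of the members and pathway genes, 12 were listed from 3' end-seq, 4 from RNA-seq polyadenylation, 28 from splicing and 2 with a cryptic site. At an adjusted p up to 0.01 the RNA-seq count fell to 2, without MARK1 and MARK3, and 3 of the 5 MARK clusters passed. With a change of at least the median size it was 1. Requiring an intron that changed by 10 points or more left 8 splicing genes, and a knockdown usage of at least 20% left 1 gene with a cryptic site, MARK1. The other alternatives kept each count within 1.5 times, and MARK3 in 3' end-seq passed both of its stricter thresholds. No paired analysis was possible because the tables hold no value per library. Other settings for expression (pseudocount, filter, leaving out replicates, replicate block) were not run, because the columns are not tied to samples. The depth is unknown.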
